A study of Mus musculus with 30 samples.

Results

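Pclaf, Mki67, Top2a, Stmn1, Tubb5, Ccna2, Tyms, Rrm2, Birc5 and Pcna are genes of the cell cycle, and they were followed by name through single-cell RNA libraries of 8 organs. The 10 genes were chosen by symbol, and all 10 were among the 23013 gene rows of the table. Seq-Well, a method in which single cells share small wells with barcoded beads, had been applied to 30 libraries from 8 male DBA1/J mice. All mice were DBA1/J males without any genetic change named in the labels. The 4 mice with collagen-induced arthritis (CIA) had been immunised with bovine collagen II (100 µg, with adjuvant) and boosted on day 20. Arthritis scores were 8 in S1 and in S2, 3 to 4 in S6 and 3 in S7. Scores were 0 in the 4 healthy mice (H7, H6, H4 and H3). Organ samples had been cryopreserved, the blood libraries came from a density gradient, and red cells had been lysed. Thymus, spleen and lymph node had been passed through a strainer, whereas joint, muscle, lung and skin had been digested with enzymes. This difference in preparation goes with the organ. Blood was taken from all 4 healthy mice and from S2, S6 and S7, and lymph node from the same healthy mice and from S1, S2 and S7. Joint (H3 and S1), lung, muscle, skin, spleen and thymus (H6 and S1) came from 1 mouse per state, so their states are compared as values without a test.

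A cell that divides first copies its DNA in S phase and then separates the copies in mitosis. Many genes for these steps are transcribed in waves: genes for nucleotide supply and DNA synthesis are switched on by E2F factors before and during S phase, and genes for chromosome condensation and the spindle rise later, towards G2 and mitosis. Transcripts of this kind mark dividing cells in a mixed tissue. In the thymus, T cell precursors divide repeatedly between the rearrangements of their receptor genes, whereas most lymphocytes in blood and in a resting lymph node are quiescent. The mouse spleen can also make red cells and granulocytes, and the precursors of both divide.

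Later cell-cycle genes often carry CCAAT boxes and a cell cycle genes homology region (CHR) near their start, and S phase genes carry E2F sites. Promoter windows were at hand for 8 of the 10 genes, and 3 are shown as examples. The levels of these 3 genes moved together over the organs, but so did those of Rrm2, whose window is not shown. All are from RefSeq (GRCm38.p6), 5′ to 3′ on the strand of the gene. Capitals mark TTTGAA (the CHR letters), CCAAT and the E2F letters, which are TTCGCGC or else TTGGCGC or else TTCCCGC or else TTGCCGC, each on either strand.
Top2a, chr11:99024140-99024439, minus strand: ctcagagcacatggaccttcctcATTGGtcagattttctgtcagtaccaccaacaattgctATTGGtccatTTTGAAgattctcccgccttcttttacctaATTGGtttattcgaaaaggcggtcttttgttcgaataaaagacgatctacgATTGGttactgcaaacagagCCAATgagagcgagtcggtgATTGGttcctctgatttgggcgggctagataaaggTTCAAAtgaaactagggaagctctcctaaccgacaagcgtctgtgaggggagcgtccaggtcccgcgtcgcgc
Mki67, chr7:135716330-135716629, minus strand: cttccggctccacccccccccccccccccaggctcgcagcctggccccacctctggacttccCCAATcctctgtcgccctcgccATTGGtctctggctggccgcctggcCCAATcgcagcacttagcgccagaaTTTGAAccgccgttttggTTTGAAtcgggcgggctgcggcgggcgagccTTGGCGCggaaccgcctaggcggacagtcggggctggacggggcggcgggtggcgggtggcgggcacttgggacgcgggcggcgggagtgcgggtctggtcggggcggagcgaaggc
Pclaf, chr9:65890073-65890372, plus strand: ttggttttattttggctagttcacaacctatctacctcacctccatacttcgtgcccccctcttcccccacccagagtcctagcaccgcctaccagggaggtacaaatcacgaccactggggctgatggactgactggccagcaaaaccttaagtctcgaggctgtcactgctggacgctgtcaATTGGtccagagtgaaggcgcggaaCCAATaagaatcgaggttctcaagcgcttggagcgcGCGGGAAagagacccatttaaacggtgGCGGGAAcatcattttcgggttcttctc
The Top2a window held 6 CCAAT boxes and 2 CHR matches. The Mki67 window held 3 CCAAT boxes, 2 CHR matches and 1 E2F match, and the Pclaf window held 2 CCAAT boxes and 2 E2F matches. No capitals of different motifs overlap in these windows. Among the 8 windows, 6 held a CCAAT box, against 37.4% of all 32851 windows of the same length. An E2F match was in 4 of the 8, against 9.57% of all windows, and a CHR match in 2 of the 8, against 17.9%. Both windows with a CHR match are among the 3 shown. The Rrm2 window held 1 CCAAT box and 1 E2F match, and the Birc5 and Tyms windows held no match to any of these motifs. These motifs were picked after the sequences had been seen, and a match is a description of letters, not of a bound site.

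The libraries held 27 to 934 barcodes and 217494 to 7886790 units. A unit is a molecule count after the authors had added up neighbouring barcodes of a library, and levels are given as units per 1000000 units of the library (UPM). Of the 8282 barcodes, only 4590 had distinct profiles, and 13 barcode sequences, but 0 profiles, occurred in more than 1 library. In 19 libraries most of the rarest rows were missing. They include both thymus libraries and every lymph node library, whereas both spleen libraries had kept these rows, so a value of 0 means listed at 0. A title suffix, CIA in 13 libraries and 2CIA in the other 17, has no meaning given in the labels. The suffix was CIA for the healthy and 2CIA for the CIA mouse in thymus, spleen, skin, muscle and lung, where suffix and disease state cannot be told apart. Hemoglobin rows took 3.78% to 59.0% of units in blood. Reads of Pcna may be shared with its pseudogene Pcna-ps2, whose row held 39.9% as many units as Pcna, so Pcna values are uncertain.

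The cell-cycle genes were highest in the thymus. Together the 10 genes made up 7997 UPM in the healthy thymus and 5366 UPM in the CIA thymus. The next organ in order, the spleen, had 804 UPM in the healthy and 2784 UPM in the CIA mouse, and the lymph node had 623 to 1231 UPM over 7 mice. The blood sums lay at 179 to 578 UPM. For 7 of the 10 genes both thymus sums lay above all 24 other mouse and organ sums, against 7.96% of the 5417 rows with a mean of at least 25 UPM. Of these 7, Stmn1, Tyms and Rrm2 reached that mean only through the thymus, so their place on top is no support. Ccna2, with a mean of 9.28 UPM, is not among the 5417 rows. The other 3 genes, Mki67, Ccna2 and Birc5, were above the CIA thymus in 1 place, the CIA spleen. Without that spleen, left out after the data had been seen, the count is 10 of 10 by construction, and nothing is read from it. In such sums, fewer cells of a type and less RNA per cell cannot be told apart.

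**Figure D1:**
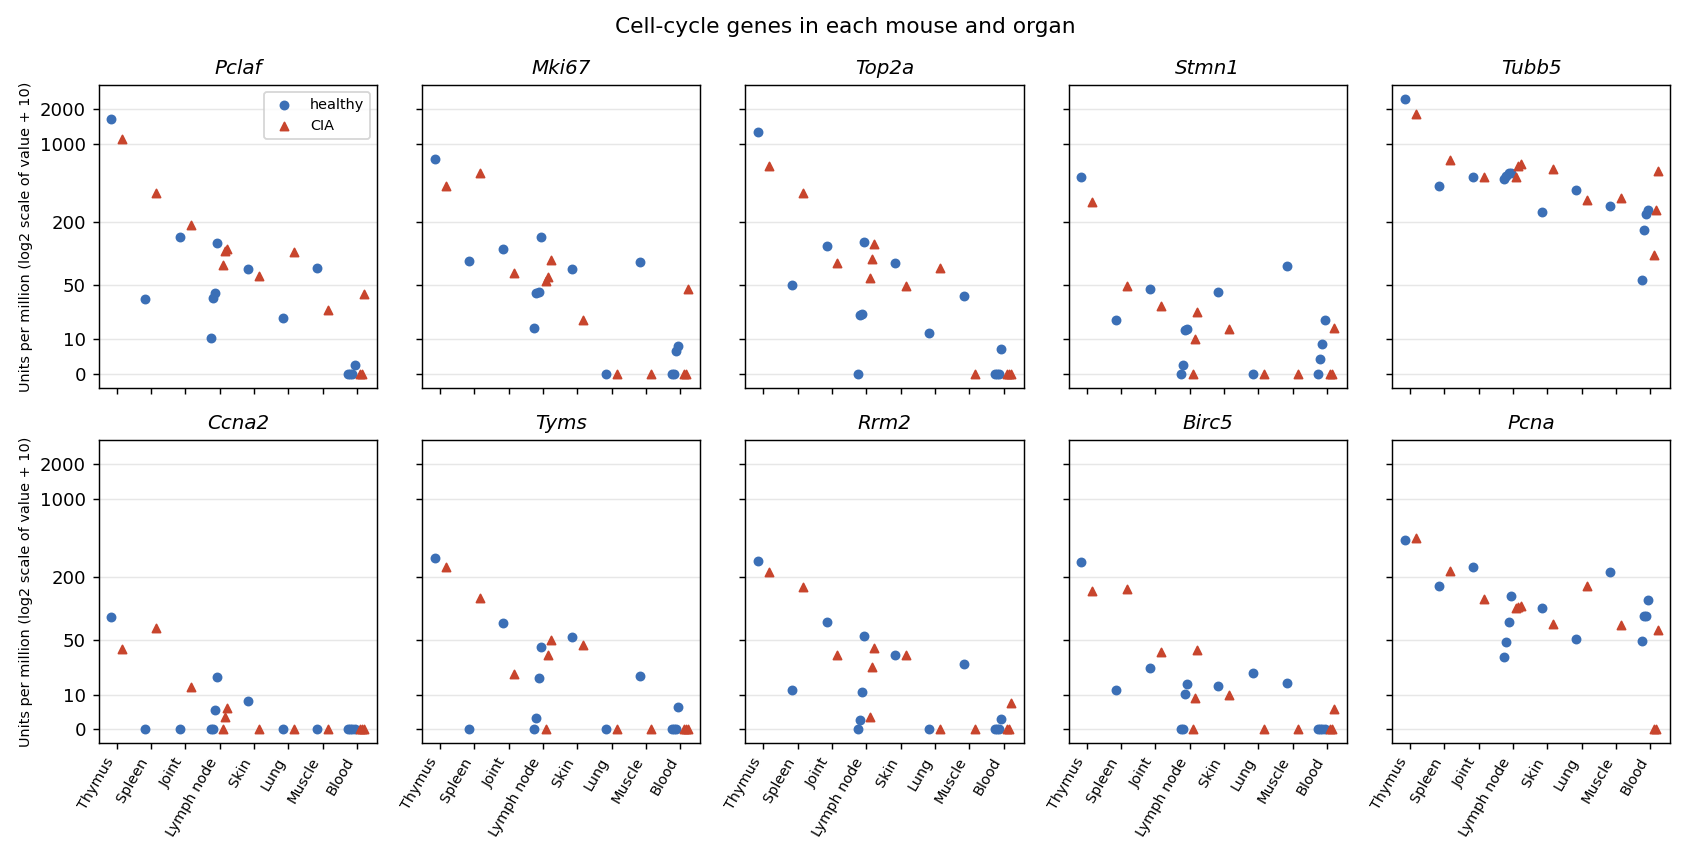
Level of each cell-cycle gene (vertical axis, UPM on a log2 scale after adding 10) in every mouse and organ (horizontal axis). Circles are healthy and triangles CIA mice, 1 point per mouse with its libraries added up. Both thymus points are on top in 7 of the 10 panels, the CIA spleen is next in most, and most blood points are at 0 except for Tubb5, Pcna and Stmn1.

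The thymus libraries carried the markers of their label. All 6 thymocyte markers were above 0 in both, with a summed level of 1248 UPM in H6 and 678 UPM in S1, and the recombinase genes Rag1 and Rag2 and the pre-T cell receptor gene Ptcra were at 0 in every library of another organ. The lymph node libraries had a summed thymocyte marker level of 39.5 to 239 UPM, which came from Cd8b1 and, in some libraries, Cd1d1. The 6 T cell markers summed to 6932 and 8378 UPM in thymus and to 1871 to 3720 UPM in lymph node. The 5 B cell markers went the other way, with 4.95 and 11.8 UPM in thymus, where 4 of the 5 were at 0, and 508 to 1551 UPM in lymph node. The part of cell composition in the differences below was not tested.

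Genes of DNA synthesis were compared first. Pclaf encodes a small partner of the sliding clamp, and its level was 1656 UPM in the thymus of H6 and 1095 UPM in that of S1. In lymph node Pclaf was at 127, 40.4, 10.7 and 36.2 UPM in H3, H4, H6 and H7 and at 79.0, 107 and 113 UPM in S1, S2 and S7. The thymus and lymph node values did not overlap, and thymus was higher by 4.19 ± 0.62 (SE) on the log2 scale with 10 UPM added (2 against 7 mice, adjusted p = 0.000169 by limma). All limma fits named here were two-sided and adjusted by the Benjamini-Hochberg method over all genes tested.

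Pcna, the sliding clamp itself, was at 433 UPM in the thymus of H6 and 452 UPM in that of S1. It lay between 32.5 and 133 UPM in the 7 lymph nodes, so the organs did not overlap, and the log2 difference was 2.30 ± 0.40 (SE, where limma gave an adjusted p of 0.000624). Pcna was the only one of the 10 genes that was higher in the CIA thymus than in the healthy one, by a ratio of 1.04. Tyms, which makes thymidylate, was at 301 and 248 UPM in the thymuses of H6 and S1 and at 0 to 49.3 UPM in lymph node. Its log2 difference was 3.49 ± 0.82 (SE, where limma gave an adjusted p of 0.00441). Rrm2, the regulated subunit of ribonucleotide reductase, was at 280 and 222 UPM in thymus against 0 to 54.5 UPM in lymph node, a log2 difference of 3.42 ± 0.74 (SE, where limma gave an adjusted p of 0.00268). Each of these DNA synthesis genes was thus higher in both thymuses than in any lymph node.

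Genes of the chromosomes and of mitosis followed the same order. Top2a, the topoisomerase that untangles DNA copies, was at 1262 UPM in the thymus of H6 and 631 UPM in that of S1. In lymph node it was at 131, 0, 23.5 and 22.5 UPM in H3, H4, H6 and H7 and at 89.4, 58.3 and 125 UPM in S1, S2 and S7. The log2 difference was 3.96 ± 0.74 (SE, where limma gave an adjusted p of 0.001), and the organs did not overlap. Mki67, the Ki-67 protein that coats mitotic chromosomes and serves as a marker of dividing cells, was at 726 and 420 UPM in thymus. The lymph nodes had 145, 15.0, 40.4 and 41.4 UPM in H3, H4, H6 and H7 and 53.9, 59.2 and 87.6 UPM in S1, S2 and S7. All lymph nodes were below both thymuses, and the log2 difference was 3.10 ± 0.60 (SE, where limma gave an adjusted p of 0.00123). Birc5 (survivin), a subunit of the chromosomal passenger complex, was at 276 and 149 UPM in thymus and at 0 to 38.9 UPM in lymph node, a log2 difference of 3.58 ± 0.72 (SE, where limma gave an adjusted p of 0.00172). Ccna2, the cyclin of S phase and of entry into mitosis, was at 84.3 and 39.6 UPM in thymus and at 0 to 18.3 UPM in lymph node, but its mean lay under the filter of 25 UPM and it was not tested.

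The microtubule genes Tubb5, a beta tubulin, and Stmn1, which destabilises microtubules, differed in their range. Tubb5 was above 0 in all 26 mouse and organ sums, from 55.2 UPM in the blood of H3 to 2472 UPM in the healthy thymus. Its log2 difference between thymus and lymph node, 1.89 ± 0.27 (SE, where limma gave an adjusted p of 0.000141), was the smallest among the genes tested here. Stmn1 was at 508 and 302 UPM in thymus and at 0 to 24.6 UPM in lymph node, and its log2 difference, 4.51 ± 0.59 (SE, where limma gave an adjusted p of 7.14e-05), was the largest.

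In all, 9 of the 10 genes passed the filter, and all 9 were called higher in thymus than in lymph node. Over all 5568 genes tested, 33.4% were called in either direction and 15.2% higher in thymus, with a median log2 difference of 0.26. Stmn1, Tyms, Rrm2 and Birc5 passed the filter only through thymus and spleen, since their lymph node means were below it, and a gene of that kind had to differ. Pclaf, Mki67, Top2a, Tubb5 and Pcna passed it in lymph node alone. With the mouse as a block, 5 of the 9 were called, and Mki67, Tubb5, Rrm2 and Birc5 had limma adjusted p-values of 0.0549, 0.0744, 0.0569 and 0.0645, with log2 differences of 3.31, 1.79, 3.39 and 3.91. Without H6, whose thymus had the higher level of 9 of the 10 genes, 3 of the 9 were called, Pclaf, Stmn1 and Tubb5, and the lone thymus was then assumed to vary like the other groups.

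Other cell-cycle genes were taken from longer lists. Of 42 S phase genes, 29 passed the filter and all 29 were called higher in thymus by limma, but 21 of the 29 were below the filter in lymph node and had to differ. The other 8 had a lymph node mean of at least 25 UPM. Over all 29, the smallest p belonged to Dut (removal of dUTP), Gmnn (a licensing inhibitor), Cdca7 and Usp1. Of these, Gmnn at least was below the filter in lymph node and had to differ. Of 50 G2/M genes, 27 passed and 26 were called higher, of which 16 were below the filter in lymph node and had to differ. Those called include Hmgb2, with 3702 and 5482 UPM in thymus against 455 to 890 UPM in lymph node, and Cdca8, Anp32e and Cenpe. Cdca8, at least, was among those below the filter in lymph node. Lbr, a nuclear envelope protein, was the 1 gene tested that was not called, and it is named after its value was seen. Among 13 genes of G1 and of cell-cycle exit, 11 were tested, 5 were called higher and 2 lower. Of the 5 called higher, 1 was below the filter in lymph node. Ccnd3, a D cyclin that thymocytes need to expand, had a log2 difference of 2.47, and its relative Ccnd2 one of -1.30, with 92.9 and 102 UPM in thymus and 186 to 350 UPM in lymph node. Cdk6, a partner of the D cyclins, had a log2 difference of 2.58, and the inhibitor Cdkn1a one of 2.26. The other gene called lower, named after its value was seen, was the antiproliferative Btg1 (-1.06).

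**Figure D2:**
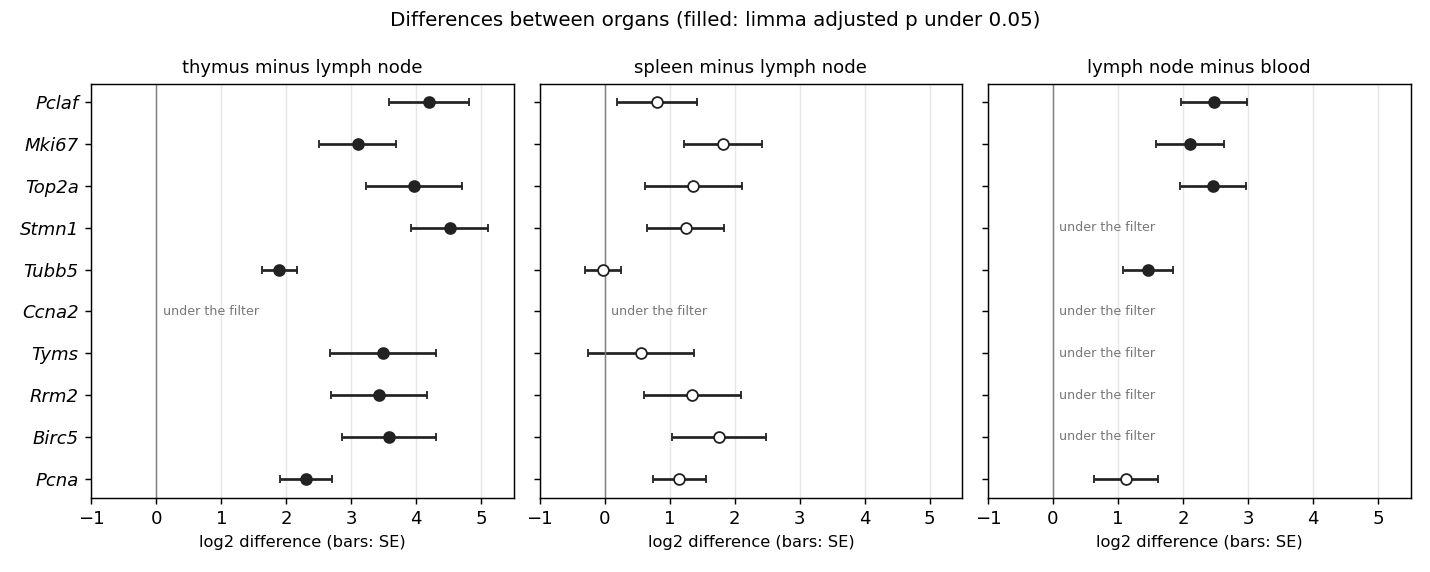
log2 differences between organs (horizontal axis, with 10 UPM added, bars are SE) for each cell-cycle gene (vertical axis), from limma fits over 11 mouse and organ sums (thymus and spleen against lymph node) and 14 sums (lymph node against blood). Filled points have an adjusted p under 0.05: all 9 tested in thymus, 4 of which were below the filter in lymph node, 0 of 9 in spleen, and 4 of 5 in lymph node against blood, 3 of which were below the filter in blood and so had to differ.

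Barcodes gave the same picture of the thymus from within the libraries. Neighbours were added up before deposit, so a barcode above 0 can owe this to a neighbour, and shares of barcodes describe the smoothed table and are not shares of cells. Mki67 was above 0 in 661 of 684 barcodes of the healthy thymus and in 407 of 439 of the CIA thymus. In blood it was above 0 in 53 of 173 barcodes of S2, in 52 of 934 of H7, in 29 of 357 in 1 library of H4, and in none of the other 5 libraries. The lymph node libraries ranged from 0 of 153 in 1 library of H4 to 134 of 369 in 1 library of S7, so the blood of S2 lay inside their range. The spleen of S1, given below, and its joint library marked CIA, with 60 of 70, came nearest to the thymus. All 10 genes were above 0 together in 299 thymus barcodes of H6 and 86 of S1, in 42 of 532 spleen barcodes of S1 and in 19 of 606 joint barcodes of S1, and in 0 barcodes of every other library. The lowest sum of the 10 genes in any thymus barcode was 1339 UPM. Thymus barcodes differed widely in this sum, with a median of 6486 UPM in H6 and a range of 1612 to 16560 UPM, and with a median of 5032 UPM in S1 and a range of 1339 to 8131 UPM.

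**Figure D3:**
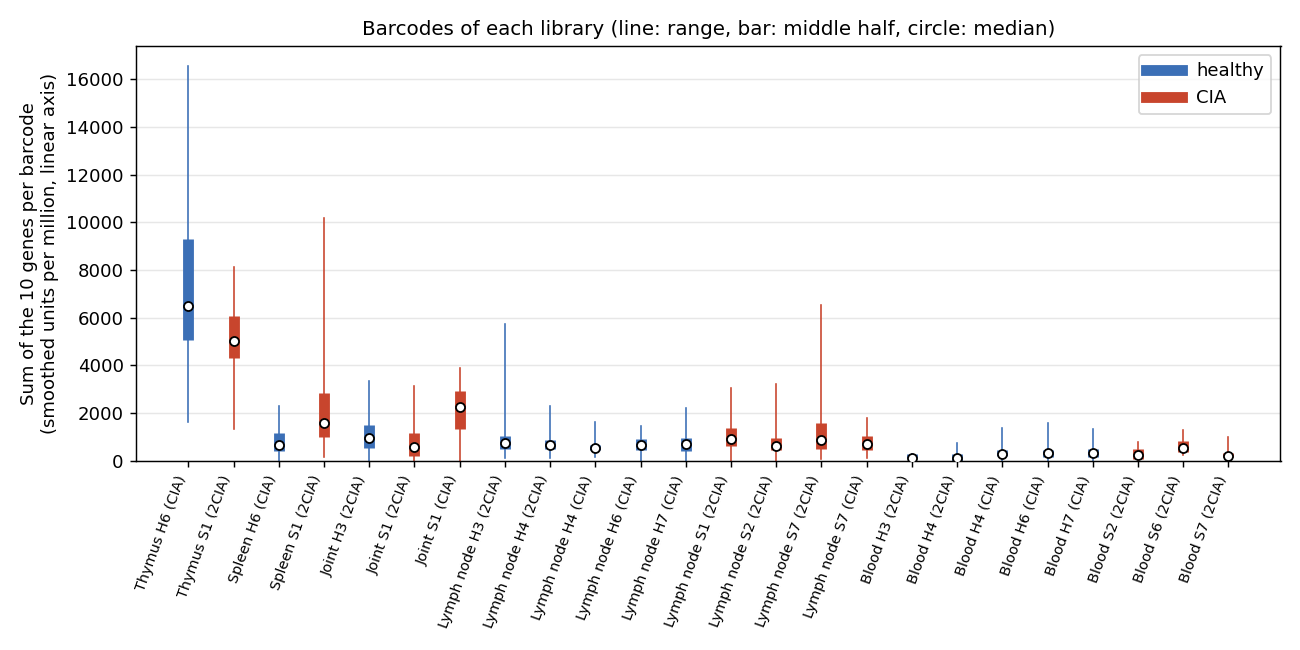
Sum of the 10 cell-cycle genes per barcode (vertical axis, smoothed UPM, linear) in each library of thymus, spleen, joint, lymph node and blood (horizontal axis, with the mouse and, in brackets, the title suffix CIA or 2CIA). Thin lines span the range, thick bars the middle of the barcodes from the first to the third quartile, and circles are medians. The thymus medians of 6486 and 5032 UPM stand above the medians of all other libraries shown.

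Within thymus, the healthy mouse had the higher level of 9 of the 10 genes, against 51.1% of 5896 rows. The ratio of CIA to healthy was 0.50 for Top2a, 0.47 for Ccna2, 0.54 for Birc5, 0.58 for Mki67, 0.66 for Pclaf and 0.83 for Tyms. With 10 UPM added, 0 of the 10 were at least 2 times higher in the healthy thymus, against 6.61% of 5896 rows, and 0 were at least 2 times higher in the CIA thymus, against 10.4% of rows. Thymocyte markers were also lower in S1, at 678 against 1248 UPM, and neutrophil markers were at 158 UPM in H6 and 1428 UPM in S1. With 1 mouse per state the difference has no replicate check.

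In the spleen the order went the other way, and all 10 genes were higher in the CIA mouse S1 than in the healthy mouse H6, against 41.2% of 5753 rows with a mean of at least 25 UPM. Only 5 of the 10 were at 25 UPM or more in the healthy spleen. Ccna2, Tyms, Rrm2, Birc5 and Stmn1 reached the mean only through the CIA spleen and had to be higher there. Pclaf was at 35.3 UPM in H6 and 367 UPM in S1. Mki67 was at 87.0 and 546 UPM, and Top2a was at 49.1 and 366 UPM. Rrm2 and Birc5 were both at 12.05 UPM in H6, and at 162 and 155 UPM in S1. Ccna2 and Tyms were listed at 0 in H6 and stood at 65.6 and 129 UPM in S1, although the rarest rows had been kept in both libraries. The smallest ratios were those of Pcna (165 and 225 UPM, ratio 1.36), Tubb5 (424 and 719 UPM, ratio 1.70) and Stmn1 (19.8 and 48.6 UPM, ratio 2.45). With 10 UPM added, 7 of the 10 genes were at least 2 times higher in the CIA spleen, against 13.6% of 5753 rows. Of these 7, Ccna2, Tyms, Rrm2 and Birc5 reached the mean of 25 UPM only through the CIA spleen and had to differ in this way, whereas Pclaf, Mki67 and Top2a were above it in both spleens. None of the 10 was at least 2 times higher in the healthy spleen, against 23.3% of rows, and the median log2 ratio of CIA to healthy was 2.79 for the 10 genes and -0.22 for all rows. The spleen comparison rests on 1 mouse per state and on libraries with different title suffixes.

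Markers of several cell types differed between the 2 spleens, some in the direction of these genes and some against it. The 6 erythroid markers summed to 519 UPM in H6, with 3 of 6 above 0, and to 91460 UPM in S1, with 6 of 6 above 0. The 7 markers of erythroid precursors, such as the transcription factors Gata1 and Klf1 and the transferrin receptor Tfrc, summed to 104 UPM in H6 with 2 of 7 above 0, and to 1523 UPM in S1 with all above 0. The 5 neutrophil markers stood at 3766 and 88780 UPM, and the 6 markers of neutrophil precursors at 475 and 6336 UPM. Monocyte and macrophage markers were at 139.5 UPM in H6 and 698 UPM in S1. Lower in S1 were B cell markers, at 1650 UPM in H6 and 1027 UPM in S1, T cell markers, at 905 and 524 UPM, and plasma cell markers, at 2151 and 1482 UPM. The part of these cell types in the difference was not tested.

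Spleen barcodes with and without Mki67 were compared, although summed neighbours do not show which cells held it. Mki67 was above 0 in 402 of 532 barcodes of S1 and in 51 of 167 of H6. In S1 the barcodes with Mki67 had a summed erythroid precursor level of 1803 UPM and those without it 438 UPM. Erythroid markers stood at 109400 and 21650 UPM in the same barcodes, whereas B cell markers were at 805 UPM with and 1892 UPM without Mki67. Neutrophil markers were close, at 90500 and 82090 UPM, and so were neutrophil precursor markers, at 6538 and 5552 UPM. T cell markers were at 452 UPM with and 802 UPM without Mki67. Plasma cell markers were at 1691 UPM with and 672 UPM without Mki67, and monocyte and macrophage markers at 793 and 330 UPM. Over the 303 distinct barcode profiles of S1, Pearson's r between the mean log2 level of the 10 genes and the log2 marker sum was 0.46 for monocytes and macrophages, 0.43 for erythroid precursors, 0.28 for erythroid cells, -0.09 for plasma cells and -0.55 for B cells, and that with the units per barcode was 0.59. For neutrophil precursors r was 0.11, for thymocyte markers -0.15, for neutrophils -0.17 and for T cells -0.19. These profiles share a library and smoothed neighbours, and the values are a description. In the healthy spleen, barcodes with Mki67 had 5310 UPM of plasma cell markers against 667 UPM without, 10090 UPM of neutrophil markers against 797 UPM, and 1185 UPM of neutrophil precursor markers against 142 UPM. Erythroid precursor markers there were at 118 and 97.4 UPM. Barcodes with Mki67 had more units, with a median of 8138 against 6757 in S1 and 7107 against 6171 in H6.

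**Figure D4:**
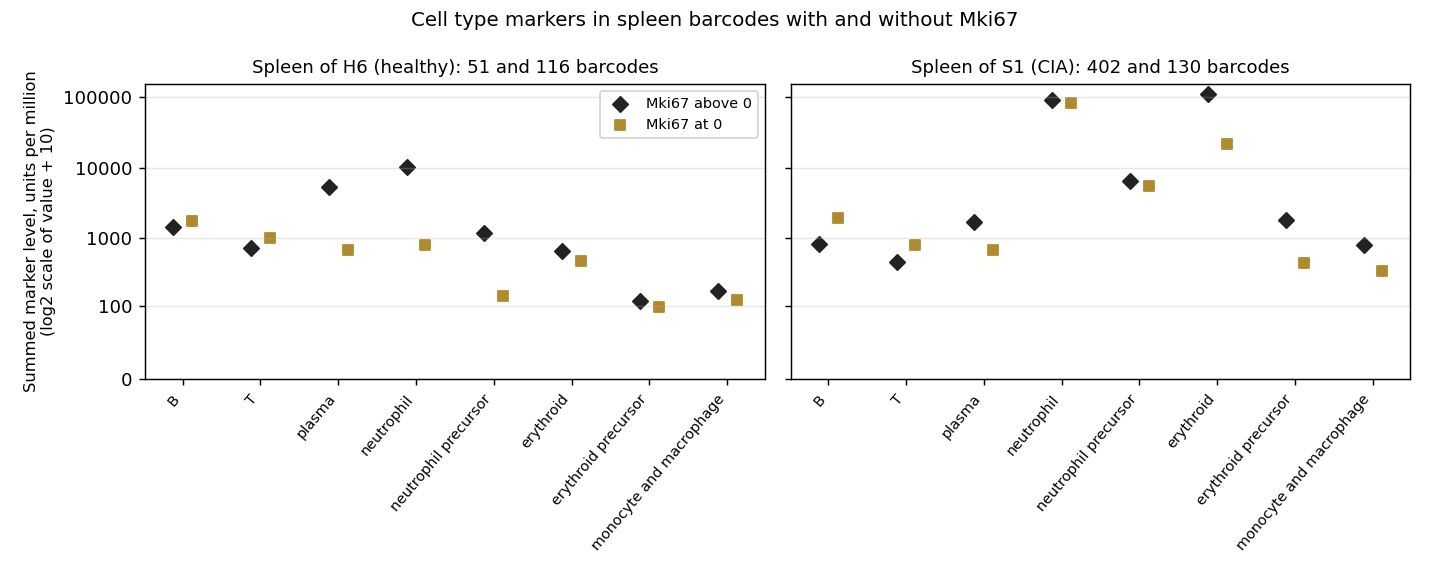
Summed level of cell type markers (vertical axis, UPM on a log2 scale after adding 10) in spleen barcodes with Mki67 above 0 (diamonds) and at 0 (squares), in the healthy mouse H6 (left) and the CIA mouse S1 (right), for 8 marker lists (horizontal axis). The widest gaps, all higher with Mki67, are those of erythroid, erythroid precursor, plasma cell and monocyte and macrophage markers in S1 and of plasma cell, neutrophil and neutrophil precursor markers in H6. Nearly as wide in S1 is the gap of B cell markers, which are lower with Mki67, as are T cell markers.

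Against lymph node, 0 of the 9 genes tested were called in spleen by limma, 3 of them at an unadjusted p under 0.05. Over all 5568 genes tested 15.1% were called in either direction and 2.37% higher in spleen, and 1521 had an unadjusted p under 0.05. Mki67 had the smallest p, with a log2 difference of 1.82 ± 0.60 (SE, where limma gave an adjusted p of 0.0508), followed by Pcna with 1.15 ± 0.40 (SE, where limma gave an adjusted p of 0.0694) and Birc5 with 1.76 ± 0.72 (SE, where limma gave an adjusted p of 0.123). The 2 spleens were far apart: the sum of the 10 genes in H6, 804 UPM, lay inside the lymph node range, and that of S1 lay above it. Mki67 was called under 5 of the alternatives, among them without H6 (log2 difference 2.88, limma adjusted p = 0.0321) and without H3 (2.08, limma adjusted p = 0.0124), and Pcna was called without H3 too. Without S1 the difference of Mki67 was 0.78. Of the other genes, 1 of 29 S phase genes (Gmnn, log2 difference 1.93) and 3 of 27 G2/M genes (Cdca8, Ccnb2 and Nusap1, with 3.09, 2.17 and 2.07) were called higher. All 4 were below the filter in lymph node and passed it only through thymus and spleen. The rarest rows were mostly missing in every lymph node library and kept in both spleen libraries, and the part of this in the 4 calls was not tested. Ccnd2 was called lower (-1.53) and the antiproliferative gene Btg2 higher (1.26).

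Lymph node and blood were the organs with replicates. All 5 cell-cycle genes tested had a positive log2 difference of lymph node over blood. Of these, Pclaf, Mki67 and Top2a passed the filter only through lymph node and had to differ. Mki67 was at 0, 5.95, 0 and 7.70 UPM in the blood of H3, H4, H6 and H7 and at 45.3, 0 and 0 UPM in that of S2, S6 and S7. Each mouse with both organs had more Mki67 in lymph node than in blood, although the blood of S2 overlapped the lymph node range. The log2 difference was 2.11 ± 0.52 (SE, where limma gave an adjusted p of 0.0136) and 7 sums per organ. Pclaf was at 0 in the blood of 5 of 7 mice, at 2.05 UPM in H4 and at 39.4 UPM in S2, and its log2 difference was 2.47 ± 0.50 (SE, where limma gave an adjusted p of 0.00416). Top2a was above 0 in the blood of H4 alone, at 6.56 UPM, and H4 was also the 1 mouse whose lymph node had Top2a at 0. Its log2 difference was 2.46 ± 0.51 (SE, where limma gave an adjusted p of 0.0046).

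Tubb5 was present in all blood sums. It was at 55.2, 169, 259 and 238 UPM in H3, H4, H6 and H7 and at 99.2, 578 and 258 UPM in S2, S6 and S7, against 492 to 660 UPM in lymph node. The blood of S6 lay inside the lymph node range and the other blood values below it, and the log2 difference was 1.46 ± 0.38 (SE, where limma gave an adjusted p of 0.0171). Pcna, at 124, 85.7, 48.7 and 85.7 UPM in the blood of H3, H4, H6 and H7, overlapped its lymph node range, and its log2 difference of 1.13 ± 0.49 (SE, where limma gave an adjusted p of 0.107) was not called. Thus 4 of the 5 genes tested were called higher in lymph node, but Pclaf, Mki67 and Top2a had blood means of 5.92, 8.42 and 0.94 UPM, passed the filter only through lymph node and had to differ. Of Tubb5 and Pcna, which passed it in blood alone, Tubb5 was called. Over all genes limma gave 13.9% of 4810 genes called higher and 16.1% called in either direction, with a median log2 difference of 0.62 over all genes. At an unadjusted p under 0.05 were 1692 of the 4810. The other 5 genes were under the filter, with at most 19.7 UPM in any blood sum and 54.5 UPM in any lymph node.

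With the mouse as a block, the log2 difference of Mki67 was 1.96 (limma adjusted p = 0.057), which was not called, while Pclaf, Top2a and Tubb5 were still called. Mki67 was also not called without S7 (limma adjusted p = 0.054), and Tubb5 was not called without H4 (limma adjusted p = 0.0701). Pclaf, Mki67, Top2a and Tubb5 were called with hemoglobin rows left out of the totals and within the libraries marked 2CIA, where the log2 differences were 3.29 for Pclaf, 2.71 for Mki67, 2.61 for Top2a and 1.78 for Tubb5. T cell markers moved with the organ, at 219 to 1600 UPM in blood and 1871 to 3720 UPM in lymph node, and their part was not tested. Of the S phase list 1 of 7 genes tested was called higher (Dut, log2 difference 1.81, below the filter in blood), of the G2/M list 0 of 8, with 1 at an unadjusted p under 0.05 (Smc4, 0.94, ahead of Hmgb2, 0.56), and of the G1 list 3 of 8. These were Ccnd2 (2.03) and Cdk4 (1.52, below the filter in blood), higher in lymph node, and Cdkn1a (-1.63), the p21 inhibitor, higher in blood.

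The design also asked whether CIA changed these genes in lymph node and in blood. In lymph node, the sum of the 10 genes was 810.5 ± 282 UPM (SD, n = 4) in healthy and 1045 ± 116 UPM (SD, n = 3) in CIA mice, and the values overlapped. Top2a had a log2 difference of 1.47 ± 0.62 (SE) and Pclaf one of 1.10 ± 0.48 (SE), with unadjusted p-values of 0.0289 and 0.0352 and a limma adjusted p of 0.999 for each. The healthy mouse H3 was above all 3 CIA mice in both. Pcna, Mki67 and Tubb5 had log2 differences of 0.64, 0.42 and 0.18. Thus 0 of the 5 genes tested were called, against 0.0197% of 5081 genes, which is 1 gene. At an unadjusted p under 0.05 were 2 of the 5, against 201 of the 5081. All 5 differences were positive, with a median of 0.64 against 0.05 over all genes. Within the libraries marked 2CIA, which leave H3 and H4 as the healthy mice, the differences were 0.02 for Pclaf, -0.03 for Mki67, 1.41 for Top2a, 0.28 for Tubb5 and 0.02 for Pcna, so the direction of Mki67 turned and those of Pclaf and Pcna came close to 0.

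The remaining 5 genes were under the filter in lymph node. Healthy mice with a value above 0 numbered 3 of 4 for Tyms, Rrm2 and Stmn1 and 2 of 4 for Birc5 and Ccna2. Among CIA mice they numbered 3 of 3 for Rrm2 and 2 of 3 for the other 4 genes, and Tyms reached 41.4 UPM in healthy and 49.3 UPM in CIA mice. Exact two-sided permutation tests of the difference in mean log2(UPM + 10) gave p-values of 0.571 to 0.914, where 0.0286 is the smallest that 4 against 3 mice allow. Of the longer lists, 0 of 8 S phase genes tested were called by limma, 1 of them (Dut, 1.26) at an unadjusted p under 0.05 and followed by Slbp (-0.71). In the G2/M list 0 of 11 and in the G1 list 0 of 8 genes were called, with 0 at an unadjusted p under 0.05 in either list, and the smallest p belonged to Hmgb2 (0.38) and Lbr (0.37) and to Cdk4 (0.93) and Ccnd3 (0.70).

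In blood, only Tubb5 and Pcna were high enough to be tested. Pcna was at 63.1 UPM in S2 and listed at 0 in S6 and S7, where the rarest rows were mostly missing, and the log2 difference from healthy blood was -2.25 ± 1.01 (SE, where limma gave an adjusted p of 0.538). The healthy values began at 48.7 UPM, so the blood of S2 overlapped them. Tubb5 had a log2 difference of 0.63 ± 0.70 (SE, where limma gave an adjusted p of 0.838). Neither was called, against 0.362% of 4416 genes. At an unadjusted p under 0.05 was 1 of the 2, against 403 of the 4416. Within the libraries marked 2CIA, which hold all CIA blood and the blood of H3 and part of that of H4, the differences were -2.24 for Pcna and 1.26 for Tubb5. The neutrophil markers moved with the state, at 1363 to 5339 UPM in healthy and 5235 to 73200 UPM in CIA blood, and their part was not tested. In S6 and S7 Tubb5 was the 1 cell-cycle gene above 0, and in the blood of S2 6 more were, Pclaf, Mki67, Stmn1, Rrm2, Birc5 and Pcna. The genes under the filter had exact permutation p-values of 0.743 to 1, and Ccna2 was at 0 in all 7 mice. Of the longer lists, 0 of 4 S phase, 0 of 8 G2/M and 0 of 7 G1 genes tested were called by limma, with 0, 1 and 1 at an unadjusted p under 0.05, which were Cks2 (2.22) and Cdkn1a (2.20).

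The difference between the CIA effects in lymph node and blood was tested as an interaction. Of the 5 genes tested 0 were called, 1 of them at an unadjusted p under 0.05, and over 4810 genes limma called 0 (0%), with 376 at an unadjusted p under 0.05. Pcna had the largest value, 2.89 on the log2 scale with an SE of 0.98, for which limma gave an adjusted p of 0.465. The signs of Pclaf, Mki67 and Tubb5 in this test turned with the setting. Of the other lists, 0 of 7 S phase, 0 of 8 G2/M and 0 of 8 G1 genes were called, with 1 (Dut, 2.16), 0 and 1 (Cdkn1a, -2.39) at an unadjusted p under 0.05.

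In the organs with 1 mouse per state, the genes were seen at lower levels than in thymus. In joint the sum of the 10 genes was 1355 UPM in H3 and 1099 UPM in S1. There 7 genes were higher in the healthy mouse, against 65.1% of 5677 rows, which held 9 of the 10 genes. In the joint of S1 Tyms was under the mean that these rows needed, and in that of H3 Birc5 was under it. The median log2 ratio of CIA to healthy was -0.48 for the 10 genes and -0.32 for all rows, so the genes lay near the background. The log2 ratio of CIA to healthy of this sum was -0.30, and it turned to 0.29 when totals were scaled by a trimmed mean of log ratios. The 2 joint libraries of S1 were unlike each other: Mki67 was at 41.0 UPM in the one marked 2CIA, with 606 barcodes, and at 391 UPM in the one marked CIA, with 70 barcodes, and Pclaf at 168 and 443 UPM. Neutrophil precursor markers were at 6982 UPM in the joint of H3 and at 7296 and 4918 UPM in the joint libraries of S1, and erythroid precursor markers at 0 to 91.5 UPM.

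In muscle 8 genes were higher in the healthy mouse, against 38.5% of 5759 rows with a mean of at least 25 UPM. Only 5 of the 10 genes were among these rows, and of them all but Tubb5 were higher in the healthy mouse. Mki67 and Stmn1 reached the mean only through the healthy muscle and had to be higher there. In the CIA mouse alone 6 genes were listed at 0, but the library of S1 had 54 barcodes. The healthy muscle library carried 87240 UPM of neutrophil and 10030 UPM of neutrophil precursor markers, against 17280 and 1038 UPM in S1, while the 4 muscle markers were at 48.0 UPM in H6 and 1955 UPM in S1. Mki67 was at 84.0 UPM in H6 and 0 in S1. In skin 9 genes were higher in H6, against 50.8% of 5625 rows. Those rows held 8 of the 10 genes, without Ccna2 and Birc5. Of the 8, Mki67 and Stmn1 reached the mean only through the healthy skin and had to be higher there. Mki67 was at 71.2 UPM in H6 and 19.7 UPM in S1, whereas Tubb5 was higher in S1, at 593 against 249 UPM. The sum of the 10 genes in skin went with Tubb5, at 726.5 UPM in H6 and 896 UPM in S1. In lung 5 of the 10 genes, Mki67, Stmn1, Ccna2, Tyms and Rrm2, were at 0 in both mice. Pclaf was at 20.9 UPM in H6 and 106 UPM in S1, and Top2a at 12.6 and 72.8 UPM.

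Over the 26 mouse and organ sums the genes followed each other closely. As a description, Pearson's r of each gene with the mean of the other 9, on log2(UPM + 10), was 0.94 for Rrm2 and Top2a, 0.93 for Pclaf, 0.91 for Mki67 and 0.90 for Tyms, and was lowest for Tubb5 and Pcna, at 0.71 each. Without the thymus, over 24 sums, these values were 0.90, 0.90, 0.87, 0.89 and 0.82, and 0.47 for Tubb5 and 0.59 for Pcna. The points share libraries, mice and depth, and zeros tie many of them. The 8 other rows most like the mean of the 10 genes were H2ac8 (r = 0.93), Cenpw (0.91), Spc24 (0.90), Hmgb2 (0.90), Cenpf (0.90), H1f5 (0.89), Lockd (0.88) and Tipin (0.88), among 5417 rows compared. H2ac8 and H1f5 are histone genes, Cenpw, Spc24 and Cenpf encode proteins of the centromere and kinetochore, and Tipin acts at the replication fork. H1f5 stood at 1174 and 695 UPM in the thymuses of H6 and S1, at 136 and 506 UPM in the spleens, and at most at 151 UPM elsewhere. H1f5 was picked for its likeness to the mean of the 10 genes, so its order of thymus, CIA spleen, then the rest is a description.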

How the data were processed

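Seq-Well libraries of 8 organs were read from 1 table of 23013 gene rows, of which 21404 had a symbol in a GRCm38.p6 gene table. The authors mapped reads with STAR (mouse GRCm38), counted molecules with the Drop-seq tools and smoothed each library over nearest neighbours, so the deposited values are a whole-number signal and not raw counts. The submitters' processing notes name bcl2fastq, Picard and STAR and the builds GRCh38 and mm9, which differ from the build in the methods, so no coordinates of the reads were used. No per-sample column stayed without a sample.

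Units were summed per mouse and organ (26 sums) and scaled to units per 1000000 (UPM). log2(value + 10) of genes with a mean of at least 25 was fitted with limma 3.58.1 (R 4.3.3) with a mean-variance trend, Benjamini-Hochberg adjustment and a threshold of 0.05. Adding 10 understates the change of low genes. Blood and lymph node were fitted alone for the state, together for organ and interaction, and lymph node, spleen and thymus together with the state as a covariate. Genes under the filter were tested by exact permutation. The fit was tested on simulated data. Other steps used Python 3.11.15, numpy 2.4.6, pandas 2.3.3 and scipy 1.17.1.

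The genes and lists were chosen with earlier results of these data known. The text names all 10 genes, and from each longer list up to 4 called genes with the smallest p, or up to 2 where none was called, and the 8 rows most like the 10 genes. Organs of a mouse are paired by the animal. For the 6 mice with both blood and lymph node, deviations from the group means correlated at -0.26 to 0.18 over 4810 genes, and the fit with the mouse as a block is given as an alternative. Smoothing leaves no counting error to compute, so no interval or detection limit is given. The p-values for CIA in blood and in lymph node measure the spread between mice. In the other fits, sums of 1 mouse from different organs were taken as separate unless the mouse was a block. Thymus and spleen had 1 mouse per state, so the spread in their fit came mostly from lymph node. Alternatives were other scalings, a pseudocount of 1, no filter, no trend, distinct profiles only, one title suffix and leaving out each mouse.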

Additional observations from a re-analysis of the deposited data

Results flagged for a closer look

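In healthy blood, 4 cell-cycle genes had 1 mouse far from the other 3, which were at 0 in each case. Pclaf was at 2.05 UPM, Top2a at 6.56 UPM and Rrm2 at 2.25 UPM in H4, and Tyms was at 5.62 UPM in H6. A single value above 0 beside 3 values of 0 always meets this criterion (Dixon's ratio). Of 18 groups checked these 4 met it. The zeros fixed this outcome, so no chance rate applies and nothing is read from the count. All 4 values are under the pseudocount of 10 UPM.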

How the results depend on the processing

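Counts of called genes moved with the setting more than the direction of the cell-cycle genes did. For CIA in blood, 16 genes were called, 10 with a trimmed mean of log ratios, 3 with a pseudocount of 1, 0 without the trend (504 at an unadjusted p under 0.05), and 0 to 21 without one mouse, with 0 without S2 (775 at an unadjusted p under 0.05), 2 without H4 and 10 each without S6 and S7. For CIA in lymph node, 1 gene was called, 9 with no filter, 0 without the trend (223 at an unadjusted p under 0.05), 3 in the libraries marked 2CIA, and 1 to 7 without one mouse, with 7 without H3. For lymph node against blood, 773 were called, 434 by the median of ratios, 432 without hemoglobin rows, 474 with a pseudocount of 1, 312 with no filter, 434 within 2CIA, 508 with the mouse as a block, and 157 to 1102 without one mouse, with 157 without H4, 434 without H7, 448 without S1 and 449 without S2. For the interaction, 0 were called, and 0 to 3 without one mouse, with 3 without S6. For thymus against lymph node, 1861 were called, 243 with the block, which leaves few residual degrees of freedom, and 548 to 1924 without one mouse, with 548 without H6 and 1115 without S1. For spleen against lymph node, 839 were called, 1588 with no filter, 1 with the block (874 at an unadjusted p under 0.05), and 142 to 885 without one mouse, with 142 without S1.

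Of the 10 cell-cycle genes, 9 were called higher in thymus than in lymph node, 5 with the block and 3 to 9 without one mouse, with 3 without H6. In spleen 0 were called, 2 by the median of ratios, 2 without hemoglobin rows, 1 with distinct profiles, and 0 to 2 without one mouse, with 2 without H3 (Mki67 and Pcna) and 1 without H6 (Mki67). For CIA in blood and in lymph node and for the interaction, 0 were called under every alternative run. Healthy and CIA groups are different mice, so no pairing between them exists, and the block changed no call other than those given here and in the report.

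Reversed directions concerned differences that had not been called. In lymph node with CIA, Mki67 was at -0.031 within 2CIA. In the interaction, Pclaf was at -0.023 and Mki67 at 0.20 with a pseudocount of 1, Pclaf was at -0.74 within 2CIA, and Tubb5 was at 0.072 with the block. Without one mouse, the interaction ranged from -0.075 to 1.11 for Pclaf, from -0.62 to 0.86 for Mki67 and from -0.96 to 0.14 for Tubb5. Spleen against lymph node gave for Tubb5 0.11 by the median of ratios, 0.0087 without hemoglobin rows, 0.0068 with distinct profiles and -0.31 to 0.26 without one mouse. Without one mouse it was -0.16 to 1.80 for Pclaf and -1.04 to 2.23 for Tyms, with the lowest values without S1. The log2 ratio of CIA to healthy of the summed genes was 0.29 in joint and -1.63 in muscle with a trimmed mean of log ratios, against -0.30 and -0.97, and moved by less than the spread of healthy lymph nodes (SD 0.45) elsewhere. The cause of these shifts was not tested. Smoothing and the missing rare rows limit what can be said of genes listed at 0.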
